A study of Mus musculus with 12 samples.

Results

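miR-191 and miR-425 are microRNAs (miRNAs) cut from neighbouring hairpins of the same locus, and the major arms of both, mmu-miR-191-5p and mmu-miR-425-5p, were followed through 12 small RNA libraries. Both were taken by name from a table with 1978 mouse miRNA names, of which 501 had a count in some library and 132 passed the filter for testing, both members among them. The pair was chosen on earlier results of the same counts, so the levels and fold changes of the members in all 6 comparisons between groups are descriptions and carry no p-value.

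The libraries were made from extracellular vesicles, membrane particles that cells release, of cultured mesenchymal stem cells, the bone-forming stromal precursors of the marrow, from SPF-grade C57BL/6 mice. There were 4 groups with 3 libraries each (replicates A, B and C), named PLL, NY, aFM and DZ, and the same antigen intervention is recorded as the treatment of all 12, DZ included. The design text describes stimulation for 48 h at 2 µg/ml with ESPs, HCF or pLL, which the study's title calls hydatid antigens; PLL carries the name of the last of these, and what NY, aFM and DZ stand for is not stated. No group is called unstimulated, so DZ served as a common point of comparison only, and nothing records whether replicates came from separate animals or cultures, so the spread and any p-value may be technical.

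A miRNA gene is transcribed as a long precursor from which the nuclease Drosha frees each hairpin. Dicer then cuts out a duplex of both arms, and usually one arm, the guide, is kept by an Argonaute protein and pairs with messenger RNAs through its seed, bases 2 to 8. miR-191 and miR-425 are known as a co-transcribed pair that most tissues and blood cells express. miR-191-5p is widely used as an internal reference in quantitative PCR of serum and vesicle RNA, and miR-425-5p belongs to some of the same reference panels.

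The mature sequences are shown because the members were counted by them, with the seed in capitals (5′ to 3′, RefSeq, GRCm38.p6).
miR-191-5p: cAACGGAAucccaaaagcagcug
miR-191-3p: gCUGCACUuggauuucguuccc
miR-425-5p: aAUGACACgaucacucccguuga
miR-425-3p: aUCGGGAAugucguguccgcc
Both 5p arms are 23 bases long, and no correction for length was made. How well each sequence was captured was not measured, so ratios between different sequences are ratios of counts, not of molecules. Their seeds differ. No other mouse miRNA in the RefSeq table carries the seed of miR-191-5p, while miR-489-3p shares that of miR-425-5p and had 0 counts in the 12 libraries.

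The hairpins show where each arm lies, with the 5p and 3p arms in capitals (5′ to 3′, RefSeq, GRCm38.p6).
Mir191: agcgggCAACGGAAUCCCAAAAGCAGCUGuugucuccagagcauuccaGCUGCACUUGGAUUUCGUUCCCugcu
Mir425: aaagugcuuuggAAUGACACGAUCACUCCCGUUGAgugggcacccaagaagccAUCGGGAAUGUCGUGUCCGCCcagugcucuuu
Mir191 lies at chr9:108568319-108568392 and Mir425 at chr9:108568777-108568861, both on the plus strand and 384 bases apart. RefSeq places both inside the protein-coding gene Dalrd3 (chr9:108567484-108572773). GENCODE M21 starts Dalrd3 downstream of both, at 108569886, and gives the stretch to the long noncoding RNA gene 4833445I07Rik, whose unspliced transcript (exon at chr9:108567533-108569174) covers both hairpins. In its spliced transcript Mir191 falls in the intron between the exons ending at 108568180 and starting at 108568484, and Mir425 starts just past the end of the second exon at 108568774. GENCODE also lists a miRNA gene, Gm24083, on the minus strand over Mir191, and whether the counting used strand is not given in the sources used here. RNAfold placed 19 of the bases of each Mir191 arm in predicted pairs, against 14 of the 5p arm and 17 of the 3p arm of Mir425, with predicted folding energies of -35.0 kcal/mol for Mir191 and -31.7 kcal/mol for Mir425.

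Depth set what could be seen. Libraries held 68647 to 214303 counts, and mouse miRNAs took 17607 to 60436 of them. That is 29.2% to 60.7% of a library's counts in PLL, 18.6% to 30.6% in NY, 10.7% to 19.9% in aFM and 10.3% to 21.6% in DZ; the rest fell on predicted loci without a gene name. Levels are in CPM, which brings each library to the same total of miRNA counts, with library sizes adjusted by TMM, a method that sets the bulk of miRNAs level between libraries. They are shares of the vesicles' miRNA, so more vesicles from one kind of cell and more of a miRNA per vesicle cannot be told apart. A single count was worth 22.6 to 61.0 CPM.

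miR-191-5p was an abundant miRNA of these vesicles and was lowest in aFM. It had 418, 415 and 448 counts in PLL replicates A, B and C, 262, 355 and 256 in NY, 151, 179 and 168 in aFM, and 162, 218 and 240 in DZ. With 3272 counts in all it held the 22nd place by mean share among the 501 miRNAs detected, and between the 16th and the 28th place in every library. Its share of miRNA counts was 1.14% ± 0.438 in PLL, 0.929% ± 0.0733 in NY, 0.634% ± 0.0577 in aFM and 1.03% ± 0.184 in DZ (SD, n = 3).

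On the TMM scale miR-191-5p stood at 9465, 10423 and 14253 CPM in PLL, at 8685, 11017 and 8514 CPM in NY, at 6368, 6581 and 5077 CPM in aFM, and at 9877, 12404 and 9094 CPM in DZ. The 3 aFM libraries were below all 9 others, while PLL, NY and DZ overlapped each other. Group means were 11381 ± 2534 CPM in PLL, 9405 ± 1398 in NY, 6008 ± 814 in aFM and 10458 ± 1730 in DZ (SD, n = 3), so that the order was PLL, DZ, NY and aFM. In that order PLL and DZ, and DZ and NY, did not differ beyond their spread, and NY and aFM, the lowest pair, were neighbours without overlap. The 95% counting intervals (exact Poisson, counting error only) of the highest aFM library, 5652 to 7619 CPM, and of the lowest library outside aFM, 7503 to 9623 CPM in NY replicate C, overlapped slightly. Between-library variation was larger than counting alone gives: the coefficient of variation was 22.3% in PLL, 14.9% in NY, 13.5% in aFM and 16.5% in DZ, where the counts themselves allow 4.84% to 7.76%.

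**Figure D1:**
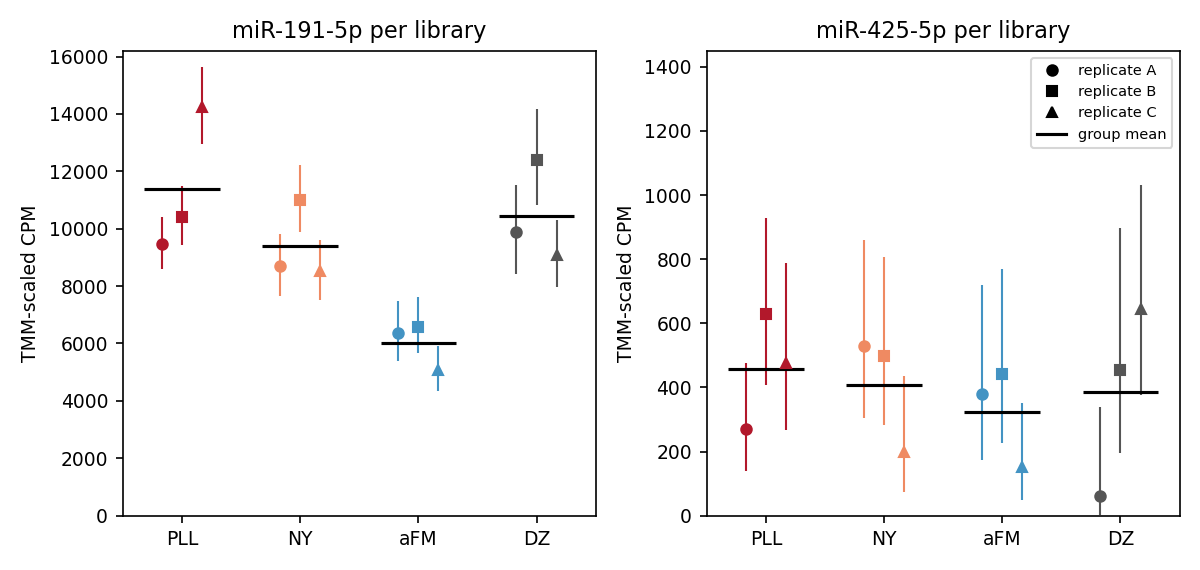
TMM-scaled CPM (y axis) of miR-191-5p (left) and miR-425-5p (right) in the 12 libraries by group; points are libraries, vertical lines exact 95% Poisson counting intervals and horizontal lines group means. The aFM libraries of miR-191-5p sit between 5077 and 6581 CPM, below all others, while the miR-425-5p groups overlap and its intervals are wide.

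miR-425-5p, from the neighbouring hairpin, was scarce. It had 12, 25 and 15 counts in PLL, 16, 16 and 6 in NY, 9, 12 and 5 in aFM, and 1, 8 and 17 in DZ, or 142 in all, which put it in the 104th place by mean share. The levels were 272, 628 and 477 CPM in PLL, 530, 497 and 200 CPM in NY, 380, 441 and 151 CPM in aFM, and 61.0, 455 and 644 CPM in DZ. DZ held both the lowest and the highest library, and all 4 groups overlapped. Means were 459 ± 179 CPM in PLL, 409 ± 182 in NY, 324 ± 153 in aFM and 387 ± 298 in DZ (SD, n = 3), and none of the neighbours in this order differed beyond their spread. The single count of DZ replicate A has a counting interval of 1.54 to 340 CPM, and that of the 17 counts of DZ replicate C is 375 to 1031 CPM. The coefficients of variation, 39.0% in PLL, 44.5% in NY, 47.2% in aFM and 76.9% in DZ, stood above the 24.0% to 34.0% that counting gives.

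One fit across the 132 miRNAs gave a log2 fold change and its standard error (SE) in each of 6 comparisons. Its call rule was an adjusted p under 0.05 (edgeR quasi-likelihood test, Benjamini-Hochberg), and a second rule asked only that the libraries of both groups do not overlap. The share of all tested miRNAs that met each rule is given beside the members, and nothing is read from the members' calls, since their values chose them. The comparisons share libraries, aFM and DZ among them, and are not independent of each other.

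In aFM against DZ, miR-191-5p averaged 6008 CPM in aFM and 10458 CPM in DZ, a ratio of 0.575 and a fitted log2 fold change of -0.80 ± 0.24 (SE). The median of all tested miRNAs was -0.14, and 46 of the 132 had a larger fold change in size. miR-425-5p averaged 324 CPM in aFM and 387 CPM in DZ, at -0.33 ± 0.70 (SE), with overlapping libraries, and without DZ replicate C its fold change turned to 0.30. By the call rule 1 of the 2 members, miR-191-5p, was called, where 18.9% of all tested miRNAs were, and the libraries of the same member did not overlap, as in 34.1% of all. The call was kept under 2 of 10 other settings (upper quartile factors and DESeq2) and when 1 of the 12 libraries, PLL replicate A, was left out. It was lost without any of the other 11. Each fit with a library left out also repeated the filter and tested 143 to 147 miRNAs in place of 132. The adjustment and the estimate of spread therefore changed too, and a lost call need not come from the library alone. The fold change of miR-191-5p stayed between -0.94 and -0.63 in these fits.

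In PLL against aFM, miR-191-5p averaged 11381 CPM in PLL and 6008 CPM in aFM, a ratio of 1.89 and a log2 fold change of 0.92 ± 0.24 (SE), where the median of all tested was 0.31 and 50 miRNAs changed more in size. Without PLL replicate C, the highest library, the fold change was 0.56 and the call was lost. miR-425-5p averaged 459 CPM in PLL and 324 CPM in aFM, at 0.51 ± 0.67 (SE). Here too 1 of the 2 members was called, miR-191-5p, against 9.09% of all tested, and its libraries did not overlap, as in 38.6% of all. The call was kept under 3 of 10 other settings (all rows of the table, the replicate block and DESeq2) and without PLL replicate A, NY replicate B or DZ replicate B, each left out singly, but not without the other 9 libraries. The fits with a library left out again tested 143 to 147 miRNAs.

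In NY against aFM the libraries of miR-191-5p did not overlap either. It averaged 9405 CPM in NY and 6008 CPM in aFM (log2 fold change 0.65 ± 0.24 SE, median of all tested 0.18). Non-overlap was met by 43.9% of all tested miRNAs there. The call rule was met by 3.79% of all tested and by neither member. miR-425-5p averaged 409 CPM in NY and 324 CPM in aFM, at 0.35 ± 0.68 (SE).

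PLL, NY and DZ were not told apart for either member, and in these 3 comparisons neither member was called and both overlapped. For miR-425-5p the SE of 0.65 to 0.69 is too wide to show that the groups were alike. PLL against NY gave log2 fold changes of 0.27 ± 0.24 for miR-191-5p and 0.16 ± 0.65 for miR-425-5p (SE), with 6.82% of all tested called and 31.8% not overlapping. PLL against DZ gave 0.12 ± 0.24 for miR-191-5p and 0.18 ± 0.67 for miR-425-5p, with 3.79% called and 21.2% not overlapping. NY against DZ gave -0.15 ± 0.24 for miR-191-5p and 0.025 ± 0.69 for miR-425-5p, with 0.758% called and 15.9% not overlapping. For miR-191-5p the sign turned without PLL replicate C in PLL against NY (-0.014) and PLL against DZ (-0.22), and it was kept in only 14 of 22 other settings in PLL against DZ, so no direction between PLL, NY and DZ is given. For miR-425-5p, leaving out 1 library turned the sign in every comparison but PLL against aFM, so its directions are not given either. In the joint test of any group difference 12.1% of all tested miRNAs were called, and neither member was.

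**Figure D2:**
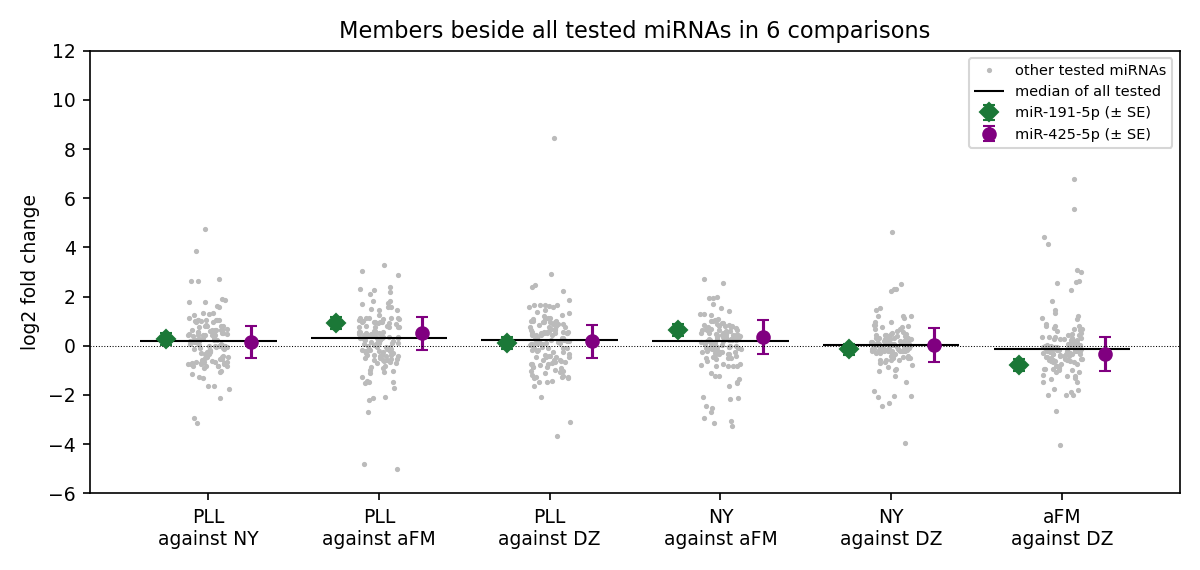
Log2 fold change (y axis) of miR-191-5p (green diamonds) and miR-425-5p (purple circles) with their SE in the 6 comparisons, beside the other tested miRNAs (grey) and the median of all 132 (black line). In the comparisons with aFM miR-191-5p lies at 0.92, 0.65 and -0.80, away from the median by more than its SE, while the SE of miR-425-5p reaches past 0 in all 6.

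The aFM libraries lay below all others in miR-191-5p on 3 of 4 scales. On the scale that also counts predicted loci the aFM mean was still the lowest, but DZ replicate A fell within the aFM range. On plain CPM of miRNA counts it stood at 6916, 11731 and 15669 in PLL, 8700, 10110 and 9060 in NY, 6593, 6740 and 5676 in aFM and 8854, 12381 and 9694 in DZ, so that PLL replicate A lay just above the highest aFM library. The TMM factor of that library was 0.731, the lowest of the 12, and its level of miR-191-5p the one that the scaling moved most. Per 1000 counts of 16 other miRNAs used as references, miR-191-5p had 82.7 ± 30.4 counts in PLL, 76.7 ± 5.56 in NY, 44.8 ± 4.04 in aFM and 81.8 ± 14.9 in DZ (SD, n = 3), and aFM was again below all other libraries. That list itself varied, with mean summed levels of 145864 CPM in PLL, 122168 in NY, 133639 in aFM and 128208 in DZ. In PLL replicate A its miR-26a-5p alone reached 98798 CPM. As CPM of all rows miR-191-5p had 4719 ± 1612 in PLL, 2225 ± 762 in NY, 959 ± 225 in aFM and 1848 ± 842 in DZ (SD, n = 3). On that last scale DZ replicate A, at 911, lay within the aFM range of 705 to 1129.

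**Figure D3:**
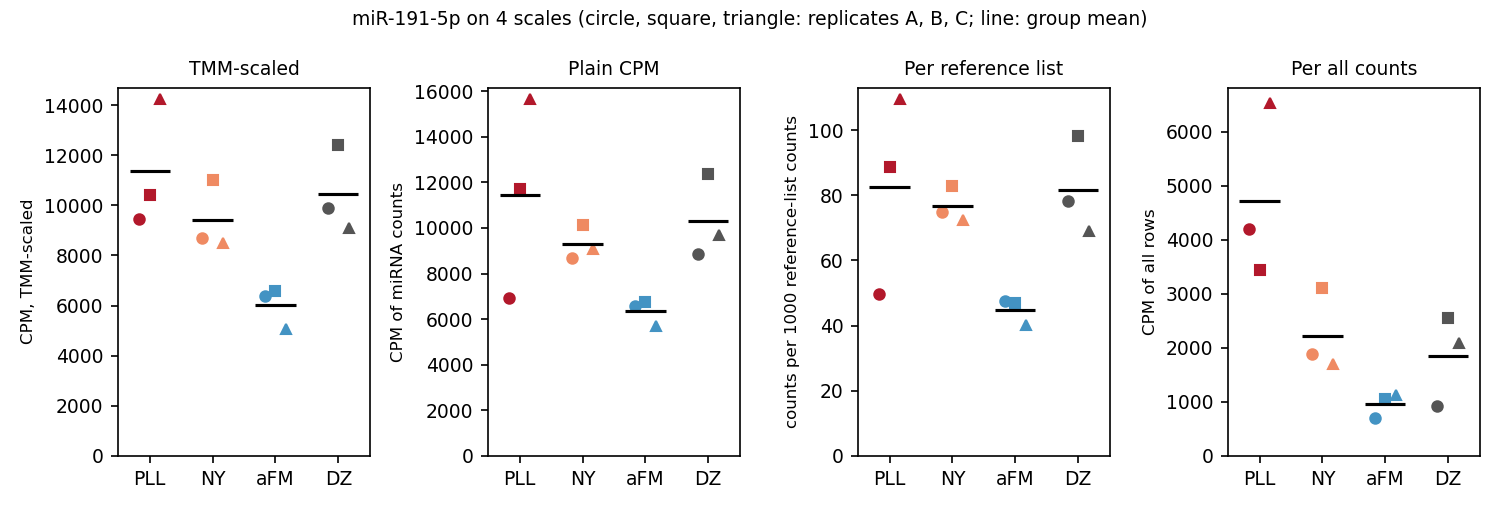
miR-191-5p in the 12 libraries on 4 scales (y axes): TMM-scaled CPM, CPM of miRNA counts, counts per 1000 counts of the reference list, and CPM of all rows; points are libraries and lines group means. The aFM libraries lie below all others on the first 3 scales and overlap DZ, through DZ replicate A, on the last.

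Within a library the ratio of the members needs no scaling. miR-425-5p made up 2.79%, 5.68% and 3.24% of the pair's counts in PLL replicates A, B and C, 5.76%, 4.31% and 2.29% in NY, 5.63%, 6.28% and 2.89% in aFM, and 0.613%, 3.54% and 6.61% in DZ. All 4 groups overlapped. On summed counts the share was 3.90% in PLL (95% Clopper-Pearson interval 2.93% to 5.08%), 4.17% in NY (2.97% to 5.68%), 4.96% in aFM (3.27% to 7.19%) and 4.02% in DZ (2.65% to 5.84%), or 4.16% over all libraries, which is 23.0 counts of miR-191-5p to each count of miR-425-5p. The mean of the DZ libraries, 3.59%, was 2.08% without DZ replicate C. No change in this share between groups is read from these counts. The intervals, which cover counting error only, overlapped, and the difference itself was not tested. The fitted fold changes of the members in aFM against DZ differed by less than the SE of miR-425-5p, so these counts cannot show whether miR-425-5p shared the lower level of miR-191-5p in aFM.

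**Figure D4:**
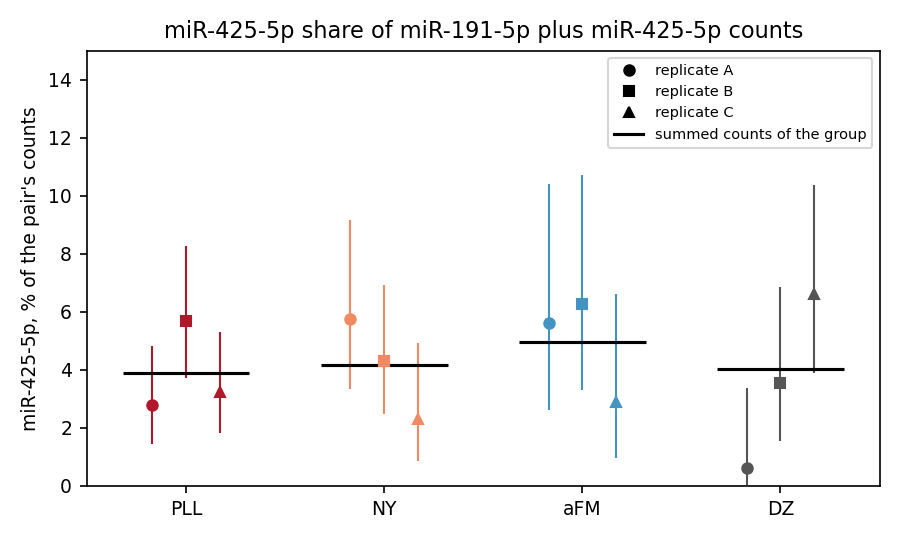
Share of miR-425-5p in the summed counts of miR-191-5p and miR-425-5p (y axis, percent) in each library, with exact 95% binomial intervals; horizontal lines are the shares on summed counts, 3.90% in PLL, 4.17% in NY, 4.96% in aFM and 4.02% in DZ. The groups overlap, and DZ replicate A, with a single count of miR-425-5p, is lowest.

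The other arms, which the choice of the members did not use, had few counts, 4 of miR-191-3p and 14 of miR-425-3p. miR-191-3p had 2 counts in PLL (replicates A and C), 2 in NY (both in replicate C), 0 in aFM and 0 in DZ, together 0.122% of the 3276 counts of its hairpin (95% Clopper-Pearson interval 0.0333% to 0.312%). Taking a count of 0 to allow up to 3 counts, the shares could be up to 0.602% in aFM and 0.484% in DZ, and the Clopper-Pearson upper bounds were 0.738% and 0.593%. A difference between groups was not detectable. miR-425-3p had 2 counts in PLL, 4 in NY, 8 in aFM and 0 in DZ, or 8.97% of the 156 counts of its hairpin (4.99% to 14.6%). Its share was 3.70% in PLL (0.452% to 12.7%), 9.52% in NY (2.66% to 22.6%) and 23.5% in aFM (10.7% to 41.2%), and the 0 counts in DZ allow up to 11.5% by the limit of 3 counts, with a Clopper-Pearson upper bound of 13.2%. Each of these shares rests on few libraries: without aFM replicate B the aFM share was 12.5% (2 of 16 counts), without NY replicate A the NY share was 0 of 22, and without PLL replicate A the PLL share was 0 of 40. The 14 counts came from only 4 libraries, 6 of them from aFM replicate B, and neither 3p arm passed the filter, so no test of them was made. On summed counts Mir425 had the larger share of 3p arm of the 2 hairpins. The intervals for all libraries do not overlap, also without aFM replicate B, where the Mir425 share was 5.80% (2.54% to 11.1%). These intervals cover counting error only and not the spread between libraries, and no comparison by library was made.

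Among miRNAs used as references for quantitative PCR, miR-191-5p was of middling steadiness. The SD of its log2 CPM over the 12 libraries was 0.42, where the median of all tested miRNAs was 0.65 and 21 of the 132 had a smaller one. miR-425-5p had 0.75, with 79 miRNAs steadier. Of 16 other reference miRNAs 13 were tested, and 6 of the 15 tested reference miRNAs including the members had a smaller SD than miR-191-5p: miR-423-3p (0.23), let-7a-5p (0.24), miR-423-5p (0.25), miR-320-3p (0.32), miR-26a-5p (0.37) and miR-30c-5p (0.39). The highest group mean was 1.89 times the lowest for miR-191-5p, 1.17 times for miR-423-3p and 1.36 times for let-7a-5p. Counting error alone gives miR-425-5p a coefficient of variation of 24.0% to 34.0% within groups, against 4.84% to 7.76% for miR-191-5p, and its part in this SD was not tested.

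Of the 13 tested reference miRNAs other than the members, 1 was called in aFM against DZ, where 18.9% of all tested were, and their median log2 fold change was -0.10 beside -0.14 over all. That was miR-484, a miRNA also used as a plasma reference, at 330 ± 136 CPM in aFM and 1241 ± 362 CPM in DZ (SD, n = 3; log2 fold change -1.88 ± 0.55 SE, adjusted p = 0.0415). In the other 5 comparisons edgeR called 0 of 65 tests of the list, where 7 had an unadjusted p under 0.05, and DESeq2 called 0 as well. Over the same comparisons 4.85% of the tests of all miRNAs were called. The most abundant of the list were miR-26a-5p, at 50063 ± 3481 CPM in aFM and 39583 ± 3297 in DZ, and let-7a-5p, at 34370 ± 2080 CPM in aFM and 27241 ± 1839 in DZ (SD, n = 3). Both stood higher in aFM than in DZ, the opposite of miR-191-5p, without being called. Besides these, only miR-423-3p (3148 and 2863 CPM) and miR-30e-5p (713 and 688 CPM) of the tested list had a higher mean in aFM than in DZ. All others had a lower mean in aFM, as miR-191-5p did, among them miR-92a-3p (9263 CPM in aFM, 15600 in DZ) and miR-320-3p (4838 and 7732 CPM).

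**Figure D5:**
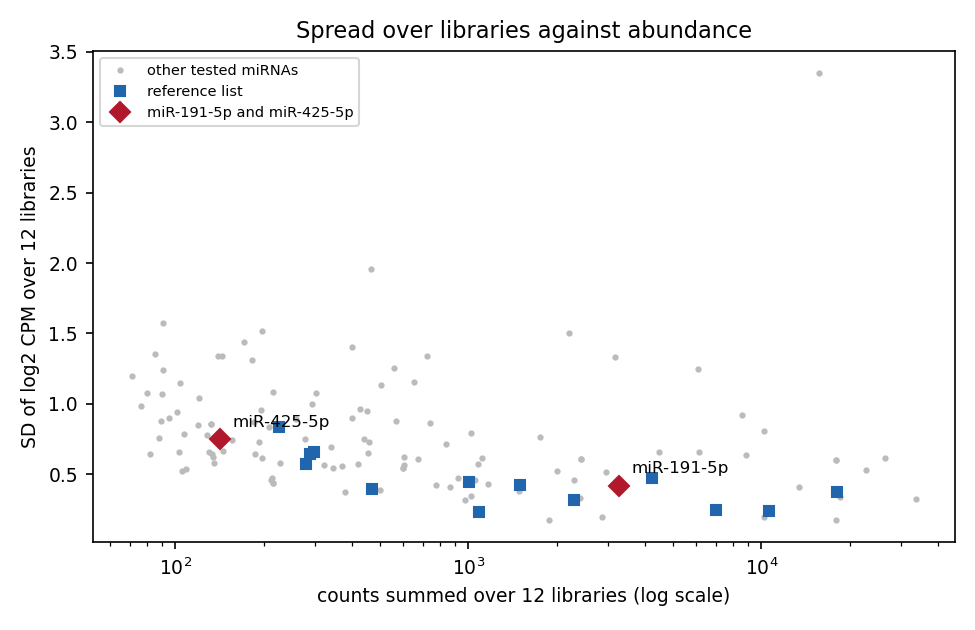
SD of log2 CPM over the 12 libraries (y axis) against summed counts (x axis, log scale) for the 132 tested miRNAs (grey), the tested reference list (blue squares) and the members (red diamonds). miR-191-5p lies at 0.42 among the lower values and miR-425-5p at 0.75 among scarce miRNAs.

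The tested miRNAs whose log2 CPM followed miR-191-5p most closely over the 12 libraries were miR-145a-5p, a smooth muscle and mesenchymal miRNA (Pearson r 0.761), miR-185-5p (0.734), miR-23b-3p (0.685), miR-210-3p, which low oxygen induces (0.677), and miR-146a-5p, which dampens NF-κB signals (0.656). These are descriptions over libraries that share scaling and group differences. miR-145a-5p averaged 275 CPM in PLL, 107 in NY, 28.1 in aFM and 464 in DZ, and miR-185-5p 1433, 953, 746 and 1852 CPM in the same groups. Each of the 5 was lowest in aFM, and within groups r was between -0.316 and 0.493, lower than over all libraries. miR-425-5p held only the 41st place for miR-191-5p, with r 0.307 and Spearman rho 0.385, and r was 0.0176 without aFM replicate C and PLL replicate C, the libraries farthest from the median of miR-191-5p. Within groups r between the members was 0.360.

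miR-425-5p was followed most closely by miR-25-3p (r 0.598), a miRNA of the miR-106b-25 cluster, miR-186-5p (0.593), miR-30e-5p (0.560), miR-1198-5p (0.521) and miR-145a-5p (0.502). Within groups, with all 12 libraries, r was between 0.482 and 0.782. Several of the values over all libraries rest on few libraries, though that of miR-145a-5p did not fall when 2 were left out. Without DZ replicate A and aFM replicate C, which are farthest from the median of miR-425-5p, r was 0.489 for miR-25-3p, 0.0813 for miR-186-5p, 0.246 for miR-30e-5p, 0.340 for miR-1198-5p and 0.571 for miR-145a-5p.

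Markers of several cell types were present. All 8 mesenchymal marker miRNAs were detected, at a summed level of 50746 to 157199 CPM in PLL, 94077 to 100368 in NY, 79672 to 95095 in aFM and 87074 to 103101 in DZ. miRNAs known from blood cells were also present. The summed level of 4 leukocyte miRNAs was 2083 to 3767 CPM in PLL, 2162 to 3414 in NY, 1571 to 2427 in aFM and 3145 to 3719 in DZ, and that of 4 erythroid miRNAs 46897 to 67562 CPM in PLL, 63486 to 129622 in NY, 48016 to 81731 in aFM and 61346 to 137122 in DZ. Of the leukocyte list miR-142a-5p, tested alone, was lower in aFM (1719 ± 234 CPM) than in DZ (3239 ± 275; log2 fold change -0.91 ± 0.28 SE, adjusted p = 0.0415), and miR-223-3p, not tested, averaged 52.6 CPM in aFM and 104 CPM in DZ. The other untested members stood the other way round: the defining marker miR-142a-3p averaged 80.7 CPM in aFM and had 0 counts in DZ and in NY, and miR-150-5p averaged 141 CPM in aFM and 64.6 CPM in DZ. Of the erythroid list miR-486a-5p was lower in aFM (36598 ± 1695 CPM) than in DZ (77065 ± 30806; -1.07 ± 0.33, adjusted p = 0.0415) and miR-451a, at 23389 ± 17577 CPM in aFM and 28845 ± 9165 in DZ, was not called (SD, n = 3). The untested miR-144-3p averaged 118 CPM in aFM and 19.0 CPM in DZ, and miR-144-5p 68.8 CPM in aFM with 0 counts in DZ. Without aFM replicate A, aFM replicate B or DZ replicate B, each left out singly, 0 miRNAs were called lower in aFM than in DZ, against 13 with all 12 libraries, so the calls of miR-484, miR-142a-5p, miR-486a-5p and miR-145a-5p were lost there. With the filter repeated, these fits tested 145, 144 and 146 miRNAs in place of 132. The part of blood-derived miRNA in the level of miR-191-5p was not tested.

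Over the 6 comparisons 57 of the 792 tests of all miRNAs were called, or 7.2%. The mesenchymal list had 4 calls in 48 tests, miR-143-3p in the 3 comparisons with PLL (log2 fold changes -1.14 against NY, -0.99 against aFM and -1.13 against DZ) and miR-145a-5p in aFM against DZ (-4.03). That last value rests on very few counts in aFM. miR-145a-5p was at 84.3, 0 and 0 CPM in aFM replicates A, B and C and at 122, 854 and 417 CPM in DZ. The median of the 8 mesenchymal miRNAs in aFM against DZ was -0.10. In the comparisons with PLL the median of this list had the opposite sign to miR-143-3p, at 0.72 against NY, 1.03 against aFM and 0.71 against DZ. PLL replicate A stood apart here, with a summed level of 157199 CPM against 58571 and 50746 CPM in PLL replicates B and C. Its miR-140-3p was at 99795 CPM, against 5400 and 5122 CPM. The medians were not recomputed without PLL replicate A, so no higher mesenchymal level of PLL as a group is read from them. The erythroid and leukocyte lists had 1 call each, in 12 and 6 tests. The neural list had 6 in 12, all of miR-9-5p, which averaged 33364 CPM in aFM and 326 CPM in DZ, beside miR-128-3p at 3563 and 2274 CPM. The endothelial and platelet list had 3 in 6, all of miR-126a-3p (4809 CPM in aFM, 791 in DZ), beside miR-126a-5p at 64.5 and 50.5 CPM. The muscle list had 1 in 6 (3 with an unadjusted p under 0.05, 3 called by DESeq2), miR-206-3p in PLL against NY (-3.15), at 165 CPM in PLL and 1496 in NY. miR-206-3p averaged 244 CPM in aFM and 234 in DZ, beside miR-1a-3p at 68.5 and 88.5 CPM. Its DZ replicates A, B and C were at 0, 56.9 and 644 CPM. In the liver and gut list edgeR made 0 calls in 12 tests (5 with an unadjusted p under 0.05, 4 called by DESeq2), with miR-122-5p at 14698 ± 1108 CPM in aFM and 14778 ± 20250 in DZ and miR-192-5p at 2540 ± 499 CPM in aFM and 3877 ± 3551 in DZ (SD, n = 3). DZ replicate C carried the DZ mean of miR-122-5p, with 38119 CPM against 1890 and 4324 in DZ replicates A and B, which lay below the aFM range of 13507 to 15699. In the epithelial list it made 0 in 6 (1 with an unadjusted p under 0.05, 0 by DESeq2), with miR-200b-3p at 305 CPM in aFM and 410 in DZ and miR-203-3p at 144 and 415.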

How the data were processed

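The deposited table held raw counts, as the values themselves show (whole numbers with unequal totals), for 3509 rows: 1978 mouse miRNA names and 1531 predicted loci. Per the submitters' processing notes the authors used FastQC, STAR, StringTie and DESeq2 with build mm39, given without versions or roles. The sources used here do not name the miRNA caller or its annotation release. Per the labels' protocols the extracted RNA was checked for mRNA libraries, whereas a kit for small RNA libraries is named in the design. The members and lists were chosen with earlier results of these data known, and predicted loci were left out of library sizes.

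R 4.3.3 ran edgeR 4.0.16 (limma 3.58.1). The filter was filterByExpr (a count of at least 10, a total of at least 15), the scaling TMM, and the test 1 quasi-likelihood fit over all 12 libraries with a term per group, two-sided, with Benjamini-Hochberg adjustment over 132 miRNAs and a threshold of 0.05. Adjusted p-values are from this fit. The SE is the log2 fold change over the square root of F. Log2 CPM for SDs and likeness had a prior count of 2. The tested miRNAs held at least 98.0% of each library's miRNA counts. Scripts were tested on simulated data. Where a library had 0 counts, up to 3 are possible, which is 67.9 to 183 CPM; intervals cover counting error only. By chi-square, all 12 pairs of libraries of the same group differed beyond sampling noise.

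Named miRNAs were the members, their other arms, the 5 most alike by Pearson r for each member, and members of the reference list and of the mesenchymal, erythroid, leukocyte, endothelial and platelet, neural, liver and gut, epithelial and muscle lists that were called (up to 4 per comparison), or the 2 most abundant of a list with fewer than 2. Alternatives were other factors, filters, row sets, DESeq2 1.42.0, a replicate block and each library left out. Replicate letters are shared by the groups. Same-letter deviations from group means correlated above 0.1 for every letter in NY against DZ (0.13 to 0.34) and in no other comparison; no label states a pairing. Structures were predicted with RNAfold 2.7.2. Sequences and coordinates are from RefSeq and GENCODE on GRCm38, not the authors' build.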

Additional observations from a re-analysis of the deposited data

How the results depend on the processing

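Of 258 fold changes of miR-191-5p and miR-425-5p recomputed under other settings, 13 moved by more than 1 SD between replicates, and no called value changed sign. Fitting all rows of the table, with predicted loci in library sizes, filter and adjustment, gave 9 of these. miR-191-5p then stood at 1.5 in PLL against NY, 2.79 in PLL against aFM, 1.51 in PLL against DZ, 1.30 in NY against aFM and -1.28 in aFM against DZ. miR-425-5p stood at 1.23, 2.29 and 1.22 in PLL against NY, aFM and DZ and at 1.06 in NY against aFM. The median miRNA was at 2.13 there in PLL against aFM and at -0.53 in aFM against DZ. With upper quartile factors miR-191-5p was at -0.38 in NY against DZ, where the median miRNA was at -0.22. Leaving out each library in turn gave miR-191-5p from -0.014 to 0.40 in PLL against NY, 0.56 to 0.97 in PLL against aFM and -0.22 to 0.24 in PLL against DZ, all 3 lowest without PLL replicate C, and -0.94 to -0.63 in aFM against DZ. The stricter filter (50 counts in 3 libraries) left miR-425-5p out, so it gave no value. The share of miR-425-5p in the pair stayed within 1 SD of the libraries, a wide margin in DZ, where it was 2.08% to 5.08% with each DZ library left out. Leaving out each library for the 3p arms was chosen after seeing the data. By Spearman rho, and by library totals, 3 of the 5 most alike miRNAs were shared for each member.

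Calls over all miRNAs changed more. For aFM against DZ the 25 calls (12 higher, 13 lower) became 16 (12 and 4) with RLE factors, 23 (8 and 15) with upper quartile factors, 8 (7 and 1) with library totals, 11 (7 and 4) scaled to the reference list, 7 with all rows, 15 with no filter, 4 with the stricter filter, 10 with the replicate block and 9 without miR-9-5p, a setting added after seeing the data. For PLL against aFM the 12 became 84 (82 higher, 2 lower) with all rows, 7 without miR-9-5p and 22 with DESeq2. For PLL against NY the 9 became 34 with all rows and 16 with no filter. For PLL against DZ the 5 became 2 with library totals, 58 with all rows, 17 with no filter, 3 with the replicate block and 19 with DESeq2. For NY against aFM the 5 became 9 with all rows, 11 with no filter, 2 with the replicate block, 3 without miR-9-5p and 15 with DESeq2. For NY against DZ the 1 became 7 with no filter, 6 with DESeq2 and 0 without miR-9-5p, and stayed 1 with the replicate block. For any group difference the 16 became 79 with all rows, 38 with no filter and 36 with DESeq2. Leaving out each library gave 5 to 26 calls for aFM against DZ, 4 to 20 for PLL against aFM, 5 to 11 for PLL against NY, 4 to 17 for PLL against DZ, 1 to 12 for NY against aFM, 1 to 2 for NY against DZ and 9 to 23 for any difference. The filter was repeated in each of these fits, which tested 143 to 147 miRNAs in place of 132. With RLE factors PLL against aFM split into 4 higher and 4 lower in place of 8 and 4. The cause of these changes was not tested. Depth limits miR-425-5p and both 3p arms most.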
